A study of Homo sapiens with 6 samples.

Results

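The genes described here are the core of the TGF-β pathway as it stood in the deposited RNA-sequencing table: the ligands TGFB1, TGFB2 and TGFB3, the receptors TGFBR1, TGFBR2 and TGFBR3, and the intracellular mediators SMAD2, SMAD3, SMAD4 and SMAD7. They were taken by symbol and make up 10 of the 23754 features of the table. All 10 were present and all 10 passed the filter on low counts, among 13991 features tested.

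The cells were IMR-90, an established human fetal lung fibroblast line, carrying a doxycycline-inducible lentiviral vector (Tet-pLKO-puro) with a short hairpin RNA against ZNF469, a zinc finger protein gene, and kept under puromycin. The control libraries (DOX-, n = 3) came from non-induced cells, although GEO labels them wild-type. The Sh-ZNF469 libraries (DOX+, n = 3) came from cells given 2 µg/mL doxycycline for 4 days. Doxycycline was given only to the induced cells, so an effect of the hairpin and of the drug cannot be told apart in these libraries. The paper reports that collagen production was unchanged by doxycycline alone or by the lentivirus alone, but no such control was sequenced here. A single hairpin in a single transduced line was sequenced, so whether another would give the same values cannot be read from these libraries. The submitters call the replicates technical, so the p-values below measure the spread between these libraries. No added TGF-β is named for either group. The comparison asks whether the transcripts that carry a TGF-β signal differ in amount once ZNF469 RNA has been lowered.

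TGF-β ligands are secreted in a latent form and, once released, bind the type II receptor TGFBR2, which then phosphorylates the type I receptor TGFBR1. The active TGFBR1 kinase phosphorylates SMAD2 and SMAD3, which join SMAD4, enter the nucleus and act on target genes, among them SMAD7, whose product inhibits the receptor in turn. In lung fibroblasts the pathway is known for driving collagen deposition and the contractile myofibroblast state.

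Total counts ran from 34057675 to 36120260 per library. ZNF469, the targeted gene (ENSG00000225614, chr16:88382959-88440757), stood at 117.5, 112.0 and 126.4 CPM (counts relative to library size, scaled with the TMM method of edgeR) in the DOX- libraries and at 80.4, 80.4 and 79.6 in the DOX+ libraries. It fell in DOX+ to 67.5% of the DOX- mean (log2 fold change -0.57, SE 0.048; edgeR's quasi-likelihood test, adjusted p = 3.31e-05 by the Benjamini-Hochberg method across the tested features). Most of the ZNF469 RNA was thus still present in DOX+. DOX+ replicate 2 stood apart from the other libraries on the first principal component (32.8, against -12.6 to 0.524 for the others), which held 23.9% of the variance. On the second, DOX+ replicate 3 stood at -29 and DOX- replicate 1 at 20.3, with the others between 0.721 and 4.51. Values without DOX+ replicate 2 are given for the members whose groups did not overlap and for some other genes. The 10 fibroblast markers checked, the 3 collagen genes among them, summed to between 36760 and 37890 CPM in DOX- and between 27380 and 28290 CPM in DOX+. Of these 10, 5 were called lower by edgeR: COL1A1, COL1A2, COL3A1, DCN and LUM. Markers of epithelial, endothelial and immune cells were low. The 6 epithelial markers summed to 9.01 to 10.6 CPM in DOX- and 8.83 to 12.0 CPM in DOX+, the 5 endothelial ones to 0.745 to 0.827 and 0.617 to 0.966 CPM, and the 5 immune ones to 0.0591 to 0.426 and 0.331 to 0.421 CPM. Most of the epithelial sum was CLDN4, at means of 9.30 CPM in DOX- and 10.3 CPM in DOX+. KRT5, SFTPB, SFTPC, CDH5, PECAM1, CD3E and TYROBP were at 0 in every library. The 4 muscle markers, with MYOD1 at 0, summed to 69.6 to 78.2 CPM in DOX- and 82.9 to 90.2 CPM in DOX+. Nearly all of that was MYOCD, at means of 69.7 and 82.0 CPM (edgeR adjusted p = 0.0569). MYH11 averaged 2.63 and 3.51 CPM, and DES 0.423 and 0.373 CPM. Fewer cells expressing a gene and less RNA per cell cannot be told apart in bulk libraries.

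The control regions of the genes show where SMAD proteins and general factors could bind. All 10 genes matched a promoter window in RefSeq (GRCh38.p14), of which the 250 bases before the start site of the canonical transcript were searched on both strands for 4 motifs: GTCTAGAC, a palindrome of SMAD half-sites; CAGACA, the core of the CAGA box bound by SMAD3 and SMAD4; TGANTCA, the AP-1 element; and GGGCGG, the GC box bound by SP1. Printed below, 5′ to 3′ with motif matches in capitals, are the windows of the 3 genes whose DOX+ libraries all lay above the DOX- libraries (TGFBR1, TGFBR2 and SMAD3) and of TGFB2, the only member with a CAGACA match. For TGFBR1 the last 76 bases are left out, because they lie in exons of its other transcripts.
TGFB2, chr1:218345086-218345335, plus strand: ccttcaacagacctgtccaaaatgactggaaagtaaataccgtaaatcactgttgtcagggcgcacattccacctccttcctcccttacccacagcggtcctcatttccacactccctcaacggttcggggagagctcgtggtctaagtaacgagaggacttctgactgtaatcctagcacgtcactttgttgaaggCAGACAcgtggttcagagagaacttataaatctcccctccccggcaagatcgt
TGFBR1, chr9:99104863-99105036, plus strand: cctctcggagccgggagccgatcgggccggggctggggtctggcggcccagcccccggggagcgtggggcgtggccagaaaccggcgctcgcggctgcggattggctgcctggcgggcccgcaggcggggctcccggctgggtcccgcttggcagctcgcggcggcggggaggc
TGFBR2, chr3:30606351-30606600, plus strand: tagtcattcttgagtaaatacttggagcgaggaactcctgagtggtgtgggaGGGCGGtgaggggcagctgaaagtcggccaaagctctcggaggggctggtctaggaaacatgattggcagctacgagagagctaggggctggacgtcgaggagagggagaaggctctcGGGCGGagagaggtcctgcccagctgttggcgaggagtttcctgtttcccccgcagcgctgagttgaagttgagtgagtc
SMAD3, chr15:67065352-67065601, plus strand: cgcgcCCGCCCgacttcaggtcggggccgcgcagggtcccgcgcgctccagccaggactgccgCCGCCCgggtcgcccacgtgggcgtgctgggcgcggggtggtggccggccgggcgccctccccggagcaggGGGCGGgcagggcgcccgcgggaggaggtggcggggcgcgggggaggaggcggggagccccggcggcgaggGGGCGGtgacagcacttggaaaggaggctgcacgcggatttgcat
The CAGACA of TGFB2 begins 53 bases before its start site. Among all 35116 promoter windows of this length, 13.6% held CAGACA, 0.182% held GTCTAGAC and 6.57% held TGANTCA. No member held GTCTAGAC or TGANTCA, which says only that these letters are not in the windows searched. GC boxes were commoner: 42.6% of all windows held GGGCGG, and so did TGFB1 with 6 matches, SMAD3 with 4, SMAD2 with 3, and TGFBR2, TGFBR3 and SMAD4 with 2 each. TGFBR1 held none of the 4 motifs, although its window had a GC content of 79.6%.

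None of the 10 members passed edgeR's quasi-likelihood test at an adjusted p of 0.05 (0 of 10), in a comparison where 1.12% of tested features did (156 of 13991, 0.4% higher and 0.715% lower in DOX+). At an unadjusted p under 0.05, 3 members were higher in DOX+ and 0 were lower, against a background of 7.31% of features higher and 7.69% lower. These 3, TGFBR1, TGFBR2 and SMAD3, were also the members whose DOX+ values all lay above every DOX- value, which held for 9.73% of features. No member lay wholly below, against a background of 10.6%. DESeq2 called 2 members, TGFBR1 and SMAD3, where it called 5.62% of the features it gave an adjusted p, and limma-voom called 0 members where it called 1.1% of features. The log2 fold change was above 0 for 8 of 10 members and for 49.3% of all features, and the median was 0.09 over the members against -0.002 over all features. DOX+ replicate 2, the library that stood apart on the first principal component, had the highest value of its group for 6 of the 10 members. Without it, edgeR called 0 members, 3 were higher at an unadjusted p under 0.05 against 5.37% of all features, 8 lay above 0, and the median was 0.08. With the length trend removed SMAD2 and SMAD4 also lay below 0, at -0.08 and -0.01. They did so with the GC trend removed as well, at -0.07 and -0.02. TGFB1 went the other way with the GC trend removed, to 0.03.

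**Figure D1:**
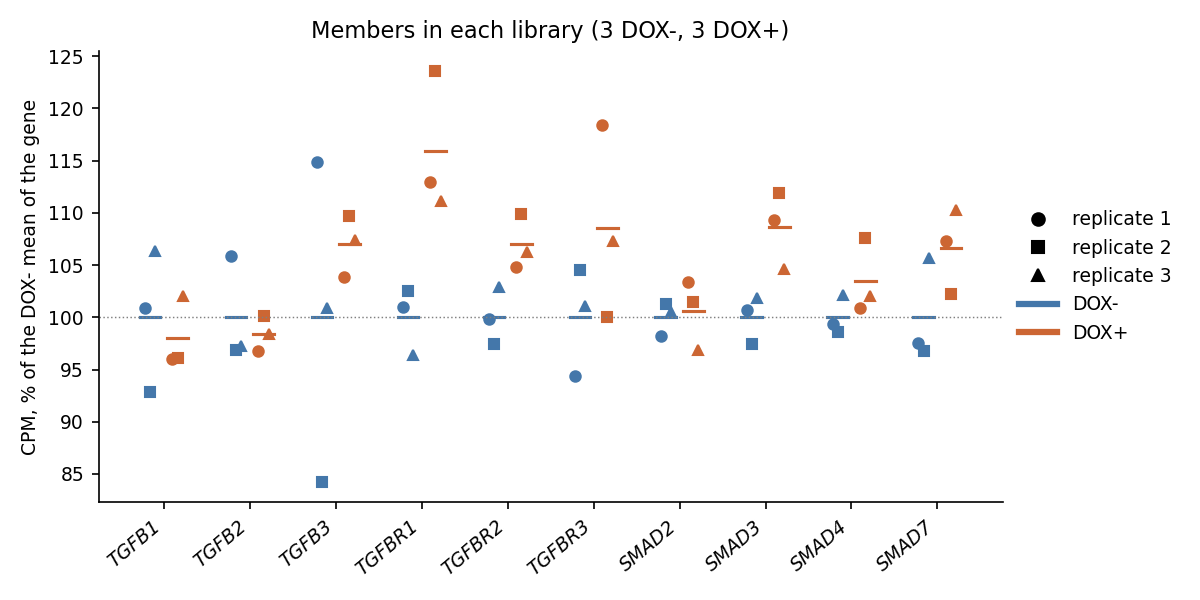
CPM of each member in each library, as a percentage of the gene's DOX- mean (y axis), for 3 DOX- and 3 DOX+ libraries; short bars mark group means and symbols mark replicate numbers. TGFBR1, TGFBR2 and SMAD3 show separate groups, with TGFBR1 at 115.9% of its DOX- mean, whereas the groups of the other 7 members overlap.

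Among the ligands, TGFB1 was the main transcript and none of the 3 ligand genes differed between the groups beyond the spread of the libraries. TGFB1 (ENSG00000105329, chr19:41301587-41353922, minus strand), the ligand most studied in fibrosis, measured 103.1, 94.9 and 108.7 CPM in DOX- and 98.1, 98.2 and 104.3 CPM in DOX+. The DOX+ values all fell inside the DOX- range. Means were 102.2 ± 6.94 and 100.2 ± 3.58 CPM (SD, n = 3 each), a log2 fold change of -0.03 with a 95% interval of -0.14 to 0.08 (edgeR adjusted p = 0.845). On the linear scale the interval ran from 0.907 to 1.06. TGFB1 overlaps HNRNPUL1, CCDC97 and TMEM91 on the opposite strand, and reads of the shared stretches cannot be assigned by strand where the library kit does not record it. HNRNPUL1 held 11359 to 12610 counts per library.

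TGFB2 (ENSG00000092969, chr1:218345336-218444619, plus strand), the isoform that relies most on the co-receptor TGFBR3 for binding, measured 30.2, 27.6 and 27.7 CPM in DOX- and 27.6, 28.5 and 28.1 CPM in DOX+. The groups overlapped, and DOX- replicate 1 was the highest of the 6 libraries. The log2 fold change was -0.02 (95% interval -0.15 to 0.11; edgeR adjusted p = 0.90). TGFB3 (ENSG00000119699, chr14:75958097-75983011, minus strand), the third isoform, was close to the limit of detection, with 21, 16 and 19 counts in the DOX- libraries and 20, 21 and 21 in the DOX+ libraries. Its log2 fold change of 0.10 had a 95% interval from -0.68 to 0.87 (edgeR adjusted p = 0.931), which on the linear scale runs from 0.626 to 1.83. The gene lies wholly within IFT43 on the opposite strand, which held 357 to 427 counts, and the few reads given to TGFB3 could belong to either.

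On the deposited FPKM scale, which corrects for transcript length and so allows genes to be set beside each other, TGFB1 supplied 86.3 ± 0.923% of the summed ligand level in DOX- and 86.2 ± 0.469% in DOX+ (SD, n = 3 each). TGFB2 supplied 13.3 ± 0.909% and 13.3 ± 0.459%, and TGFB3 supplied 0.481 ± 0.0508% and 0.546 ± 0.0103%. The shares of TGFB1 and TGFB2 overlapped between the groups, so the makeup of the ligand transcripts did not differ beyond the spread of the libraries.

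The receptors gave the largest difference of any member. TGFBR1 (ENSG00000106799, chr9:99104038-99154192, plus strand), the type I receptor kinase ALK5 that phosphorylates SMAD2 and SMAD3, measured 51.1, 51.9 and 48.8 CPM in DOX- and 57.2, 62.5 and 56.3 CPM in DOX+. All DOX+ values were above all DOX- values, and DOX+ replicate 2 was the highest. The mean went from 50.6 ± 1.62 to 58.7 ± 3.39 CPM (SD, n = 3 each), which is 1.16-fold (95% interval 1.07 to 1.25; log2 fold change 0.21, SE 0.052). The unadjusted p was 0.00124, but after adjustment over all features the difference missed the threshold (edgeR adjusted p = 0.0739). It passed with DESeq2 (adjusted p = 0.0123) and in edgeR without the filter on low counts (adjusted p = 0.0363), a fit that called 1.55% of its features. Without DOX+ replicate 2 the log2 fold change was 0.16 (edgeR adjusted p = 0.207). With the GC trend removed it was 0.13 (edgeR adjusted p = 0.0994). With replicate number as a block it was 0.21 and passed (edgeR adjusted p = 0.0379). Replicate numbers are only names here, with no pairing seen between same-numbered libraries. That fit called 135 features higher and 157 lower, against 56 and 100 in the edgeR test without the block.

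TGFBR2 (ENSG00000163513, chr3:30606601-30694142, plus strand), the type II receptor that binds the ligand first, measured 173.2, 169.0 and 178.5 CPM in DOX- and 181.9, 190.7 and 184.3 CPM in DOX+. The groups did not overlap, and the nearest values, 178.5 and 181.9 CPM, were close. Means were 173.5 ± 4.77 and 185.7 ± 4.56 CPM (SD, n = 3 each), a log2 fold change of 0.10 (95% interval 0.01 to 0.18; edgeR adjusted p = 0.252), and without DOX+ replicate 2 it was 0.08 (adjusted p = 0.513). With the length trend removed it was 0.06 (adjusted p = 0.54). TGFBR3 (ENSG00000069702, chr1:91680343-91906335, minus strand), betaglycan, which presents the ligand to TGFBR2, measured 8.65, 9.58 and 9.26 CPM in DOX- and 10.8, 9.17 and 9.83 CPM in DOX+. Here the groups overlapped and the log2 fold change of 0.12 had a 95% interval of -0.11 to 0.35 (edgeR adjusted p = 0.646). Without DOX+ replicate 1 it was 0.05.

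The balance of the paired receptors was close in the 2 groups. TGFBR2 exceeded TGFBR1 4.70 ± 0.232 times in FPKM in DOX- and 4.37 ± 0.299 times in DOX+ (SD, n = 3 each). The ratio was 4.55, 4.57 and 4.96 in the DOX- libraries and 4.46, 4.04 and 4.62 in the DOX+ libraries, so the groups overlapped and DOX+ replicate 2 was the lowest.

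**Figure D2:**
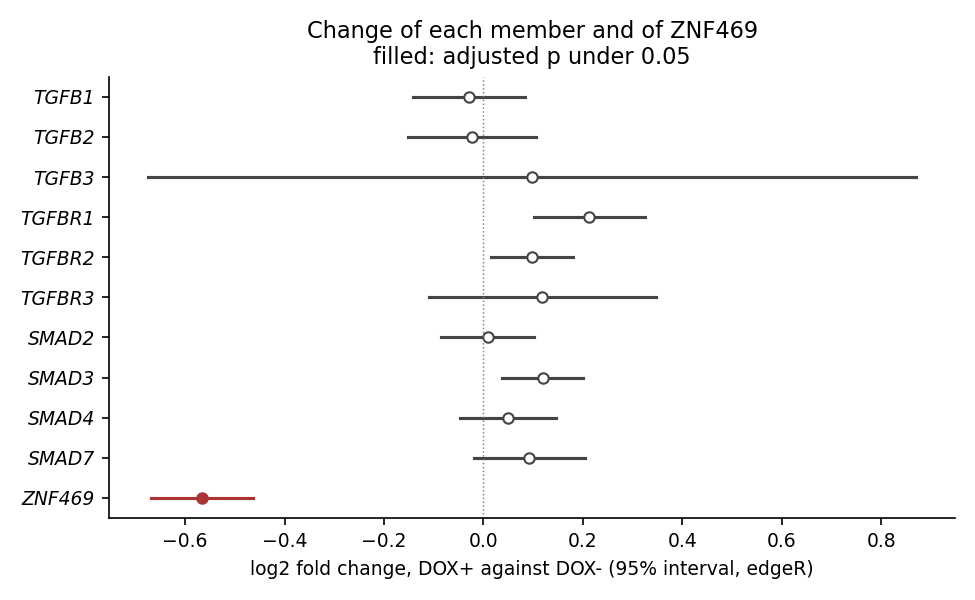
Log2 fold change of each member and of ZNF469, DOX+ against DOX- (x axis), from edgeR, with lines for the 95% interval and a filled point where the adjusted p was under 0.05. ZNF469 alone is filled, at -0.57; TGFBR1 is the member farthest from 0, at 0.21, and the interval of TGFB3 is by far the widest, from -0.68 to 0.87.

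Of SMAD2, SMAD3, SMAD4 and SMAD7, SMAD3 was the most abundant and the only one whose groups did not overlap in CPM. SMAD3 (ENSG00000166949, chr15:67063763-67195173, plus strand), the receptor-regulated SMAD that binds DNA directly, measured 241.9, 234.1 and 244.8 CPM in DOX- and 262.6, 268.8 and 251.5 CPM in DOX+. The lowest DOX+ library lay above the highest DOX- library. Means were 240.3 ± 5.57 and 261.0 ± 8.76 CPM (SD, n = 3 each), which is 1.09-fold (95% interval 1.03 to 1.15; log2 fold change 0.12, SE 0.037). The unadjusted p was 0.00726 and the edgeR adjusted p was 0.16, whereas DESeq2 gave an adjusted p of 0.0260. Without DOX+ replicate 2 the log2 fold change was 0.10 (edgeR adjusted p = 0.359), and with a transcript length trend removed it was 0.07 (adjusted p = 0.417).

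SMAD2 (ENSG00000175387, chr18:47808957-47931146, minus strand), the other receptor-regulated SMAD of this branch, measured 66.8, 68.9 and 68.4 CPM in DOX- and 70.3, 69.0 and 65.9 CPM in DOX+. Both the highest and the lowest value were in DOX+. The log2 fold change was 0.01 with a 95% interval of -0.08 to 0.10 (edgeR adjusted p = 0.950). Its deposited FPKM values ran differently, at 4.43, 4.01 and 4.44 in DOX- and 4.22, 5.01 and 3.51 in DOX+. The length implied by the ratio of count share to FPKM varied 1.35-fold over the libraries for SMAD2, against 1.10-fold for SMAD4 and 1.01-fold for SMAD3, so for SMAD2 the FPKM and the counts do not give the same account of a library.

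SMAD4 (ENSG00000141646, chr18:51028528-51085045, plus strand), the partner shared with the BMP branch, measured 60.6, 60.1 and 62.3 CPM in DOX- and 61.5, 65.6 and 62.2 CPM in DOX+. The groups overlapped, with a log2 fold change of 0.05 (95% interval -0.05 to 0.15; edgeR adjusted p = 0.649), and without DOX+ replicate 2 it was 0.02. SMAD7 (ENSG00000101665, chr18:48919853-48950965, minus strand), the inhibitory SMAD and itself an early TGF-β target, measured 46.7, 46.3 and 50.5 CPM in DOX- and 51.3, 48.9 and 52.7 CPM in DOX+. DOX- replicate 3 lay inside the DOX+ range, and the log2 fold change was 0.09 (95% interval -0.02 to 0.20; edgeR adjusted p = 0.432). In FPKM the SMAD7 groups did not overlap, at 9.65 to 10.37 in DOX- and 10.43 to 11.05 in DOX+, though the nearest values were close. The share of all features with separate groups in FPKM was not counted. In the fit on FPKM, SMAD7 had a log2 fold change of 0.11 (limma adjusted p = 0.428). The median over all features in that fit was 0.029.

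The ratio of the receptor-regulated SMADs, SMAD3 to SMAD2 in CPM, was 3.62, 3.40 and 3.58 in DOX- and 3.73, 3.90 and 3.82 in DOX+. The groups did not overlap in CPM, with means of 3.53 ± 0.119 and 3.82 ± 0.0802 (SD, n = 3 each), but they did overlap in FPKM, with means of 8.36 ± 0.375 and 9.47 ± 1.31. SMAD3 to its inhibitor SMAD7 stood at 5.03 ± 0.172 in DOX- and 5.13 ± 0.364 in DOX+ in CPM, well within the spread. These ratios are given as a description, since an exact permutation test on 3 against 3 libraries cannot give a p below 0.1.

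Ordered by FPKM in the DOX- libraries, the members spanned a wide range. SMAD3 led at 35.8 ± 0.492 FPKM (SD, n = 3), followed by TGFBR2 at 33.8 ± 0.661 and TGFB1 at 33.5 ± 2.10, the ranges of the last 2 overlapping. These 3 stood among the more abundant tested features, SMAD3 at the percentile of 87.5. After a step of 3.36-fold came SMAD7 at 9.98 ± 0.366, TGFBR1 at 7.21 ± 0.271, SMAD4 at 6.59 ± 0.323, TGFB2 at 5.14 ± 0.293 and SMAD2 at 4.29 ± 0.244 FPKM. Of these neighbours only TGFBR1 and SMAD4 overlapped. TGFBR3 stood at 1.36 ± 0.0626 FPKM, and TGFB3 was last at 0.187 ± 0.0269 FPKM, at the percentile of 4.72. In CPM per kilobase of the canonical transcript the order was the same except that TGFBR2 stood above SMAD3. In each of the 6 libraries the type II receptor transcript stood above that of the type I receptor, SMAD3 above SMAD2, and TGFB1 above both other ligands.

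**Figure D3:**
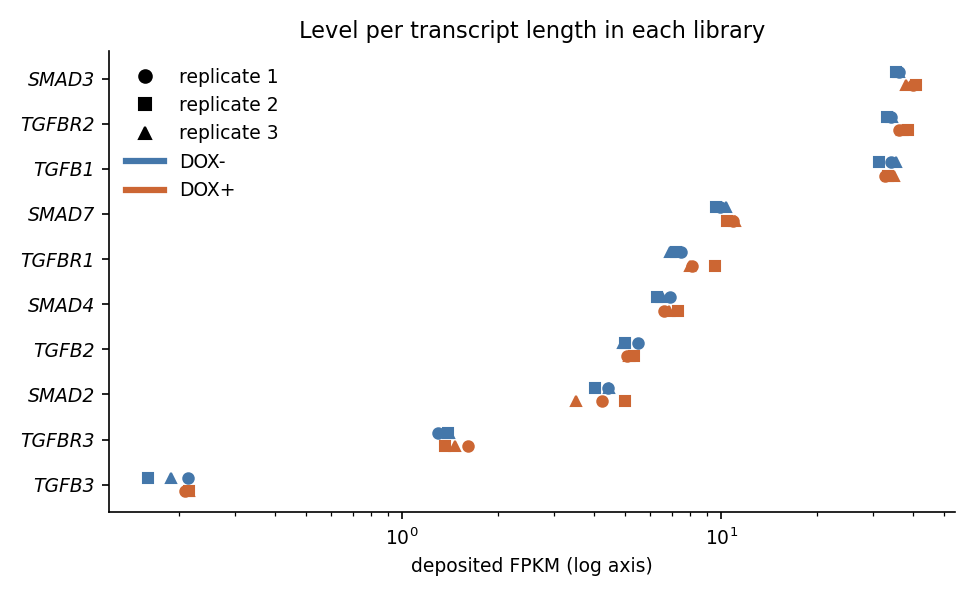
Deposited FPKM of each member in each library on a log axis, DOX- and DOX+ as separate rows of points, in order of the DOX- mean. SMAD3, TGFBR2 and TGFB1 form an upper group between 31.2 and 40.9 FPKM, and TGFB3 lies at 0.16 to 0.215 FPKM.

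The members belong to a larger pathway, of which 133 further genes were listed by role. Of these, 126 were tested, and 71 had a positive and 55 a negative log2 fold change, the median being 0.01 against -0.002 over all features. By edgeR's adjusted p, 9 rose and 4 fell, beside the 0.4% and 0.715% of all features given above. Of the 13 genes called, 10 stood in the list of target genes, and none was a receptor or a SMAD. Some genes stand in more than 1 list. The lists were drawn up with earlier results of these data known, so their shares of called genes are descriptions only.

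Genes that store and release the latent ligand came to 22, of which 19 were tested, 9 higher and 10 lower. Their median log2 fold change was -0.0006. THBS1, thrombospondin-1, which can activate latent TGF-β, was the only one called by edgeR, whereas DESeq2 called 3. It measured 2087, 2015 and 2145 CPM in DOX- and 2342, 2325 and 2296 CPM in DOX+, groups that did not overlap (log2 fold change 0.16, SE 0.025; edgeR adjusted p = 0.00629). That call was lost without DOX- replicate 1 (log2 fold change 0.16, edgeR adjusted p = 0.0584) and without DOX+ replicate 1 (0.15, 0.0612). It was also lost in the fit on FPKM (0.19, limma adjusted p = 0.0742) and with the length trend removed (0.10, edgeR adjusted p = 0.114). At an unadjusted p under 0.05 there were 9 genes of this list, 7 of them higher, beside 7.31% of all features higher and 7.69% lower. None of the 12 co-receptors and decoys was called by edgeR or DESeq2, 4 being higher and 8 lower. CD109, a surface co-receptor that lowers TGF-β signalling, had the smallest p, at 44.02 ± 1.49 and 50.03 ± 4.05 CPM (log2 fold change 0.18; edgeR adjusted p = 0.169), followed by the receptor adaptor DAB2 (-0.06; adjusted p = 0.408). DAB2 was at -0.003 in the fit on FPKM (limma adjusted p = 0.985). It was at -0.10 with the length trend removed and also with the GC trend removed (edgeR adjusted p = 0.192 and 0.101).

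The activin branch, whose ligands signal through the same SMAD2 and SMAD3, had 9 of 11 genes tested and 2 called by edgeR in opposite directions, beside 1.12% of all features. INHBA, the subunit of activin A, measured 302.6, 300.8 and 293.0 CPM in DOX- and 340.2, 364.6 and 331.9 CPM in DOX+. It rose (log2 fold change 0.21, SE 0.039; edgeR adjusted p = 0.0202). Without any 1 DOX- library or DOX+ replicate 1 the call was lost (log2 fold change 0.20 to 0.22, adjusted p up to 0.0959). It was also lost in the fit on FPKM (0.23, adjusted p = 0.135). With the GC trend removed INHBA was still called, at a log2 fold change of 0.13 (edgeR adjusted p = 0.0163). FST, follistatin, which binds and neutralises activin, measured 1192, 1179 and 1213 CPM in DOX- and 1055, 1057 and 1067 CPM in DOX+. It fell (log2 fold change -0.17, SE 0.024; edgeR adjusted p = 0.00327), and the call was lost only in the fit on FPKM (-0.14, adjusted p = 0.125). In both genes the groups stood apart, INHBA upward and FST downward.

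The other SMAD genes, SMAD1, SMAD5 and SMAD9 of the BMP branch and the inhibitory SMAD6, gave no call in edgeR. SMAD5 had the smallest p, at 69.8 ± 1.20 and 78.9 ± 5.30 CPM (log2 fold change 0.18; edgeR adjusted p = 0.127, DESeq2 adjusted p = 0.0317), then SMAD9 at 22.5 ± 0.817 and 24.5 ± 0.772 CPM (0.12; edgeR adjusted p = 0.394). In both the DOX+ libraries all lay above the DOX- libraries, and without DOX+ replicate 2 SMAD5 had a log2 fold change of 0.12 (edgeR adjusted p = 0.332). With the GC trend removed SMAD5 was at 0.08 (adjusted p = 0.424) and SMAD9 at 0.07 (0.648). SMAD9 was at 0.07 with the length trend removed as well (edgeR adjusted p = 0.651). Nuclear partners of the SMADs had 22 of 23 genes tested, 13 higher and 9 lower, with none called by edgeR. The corepressor TGIF1 measured 30.8 ± 1.44 and 26.3 ± 1.24 CPM (log2 fold change -0.23; edgeR adjusted p = 0.107, DESeq2 adjusted p = 0.0492; with the GC trend removed -0.28, adjusted p = 0.0299), and TEAD1, the DNA-binding partner of YAP, 274.8 ± 3.99 and 294.3 ± 9.57 CPM (0.10; edgeR adjusted p = 0.212), which was 0.04 with the length trend removed.

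Among 17 genes of receptor and SMAD turnover, 9 were higher and 8 lower and none was called by edgeR. PPP1R15A (GADD34), which directs a phosphatase to TGFBR1 together with SMAD7, came nearest, at 188.5 ± 1.17 and 169.4 ± 1.23 CPM (log2 fold change -0.15; edgeR adjusted p = 0.0553), and it passed in 4 of 16 alternative analyses. PPM1A, a phosphatase of SMAD2 and SMAD3, measured 41.0 ± 1.26 and 46.8 ± 3.04 CPM (0.19; edgeR adjusted p = 0.135), which was 0.09 with the GC trend removed. Of the 10 genes of the non-SMAD arm, 8 were higher and 2 lower with none called by edgeR or DESeq2. The kinase TAK1 (MAP3K7) had a log2 fold change of 0.14 (edgeR adjusted p = 0.188; 0.05 with the GC trend removed) and p38α (MAPK14) one of 0.10 (adjusted p = 0.397), which was 0.05 without DOX+ replicate 2. Across the co-receptor, BMP SMAD, partner, turnover and non-SMAD lists, in which edgeR called 0 genes, the genes at an unadjusted p under 0.05 numbered 1, 1, 4, 5 and 1, beside the same 7.31% and 7.69% of all features. DESeq2 called 0, 1, 1, 2 and 0 genes of these lists, beside 5.62% of its features, and limma-voom called 1, in the turnover list.

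Known TGF-β targets moved in both directions. Of 40 such genes, 39 were tested, with 25 higher and 14 lower, and 7 rose and 3 fell by edgeR's adjusted p, beside 0.4% and 0.715% of all features. SMAD7 is 1 of the 40, and the list holds genes that other pathways also control. It was drawn up with earlier results of these data known, so its share of called genes is a description and not a test. TGFBI, a secreted matrix protein named for its induction by TGF-β, rose from 1990 ± 27.0 to 2256 ± 31.5 CPM (log2 fold change 0.18; edgeR adjusted p = 8.37e-04). SCUBE3, a secreted ligand of the TGF-β receptor, rose from 100.1 ± 2.55 to 128.2 ± 1.30 CPM (0.36; edgeR adjusted p = 4.10e-04).

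In the other direction, the type I collagen genes fell. COL1A1 measured 15620, 15060 and 15840 CPM in DOX- and 9794, 9291 and 9745 CPM in DOX+, with a log2 fold change of -0.69 (SE 0.022; edgeR adjusted p = 1.66e-09), and COL1A2 one of -0.50 (edgeR adjusted p = 1.74e-09). ACTA2, FN1, CCN2 and TAGLN, also classic readouts, differed less than these collagen genes. ACTA2, smooth muscle actin, measured 1262, 1304 and 1320 CPM in DOX- and 1429, 1350 and 1455 CPM in DOX+. Its groups did not overlap, its log2 fold change was 0.12 (edgeR adjusted p = 0.0774), and it passed in 6 of 16 alternative analyses. FN1, fibronectin, had a log2 fold change of 0.06 (edgeR adjusted p = 0.0775). It passed in 4 of 16 alternative analyses, and with the length trend removed the value was 0.00015. CCN2, connective tissue growth factor (0.01; adjusted p = 0.893), and TAGLN, transgelin (0.01; edgeR adjusted p = 0.891), overlapped between the groups. Within 1 list of targets, therefore, genes rose, fell or stayed within the spread of the libraries, while edgeR called none of the 10 ligand, receptor and SMAD transcripts and DESeq2 called TGFBR1 and SMAD3.

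**Figure D4:**
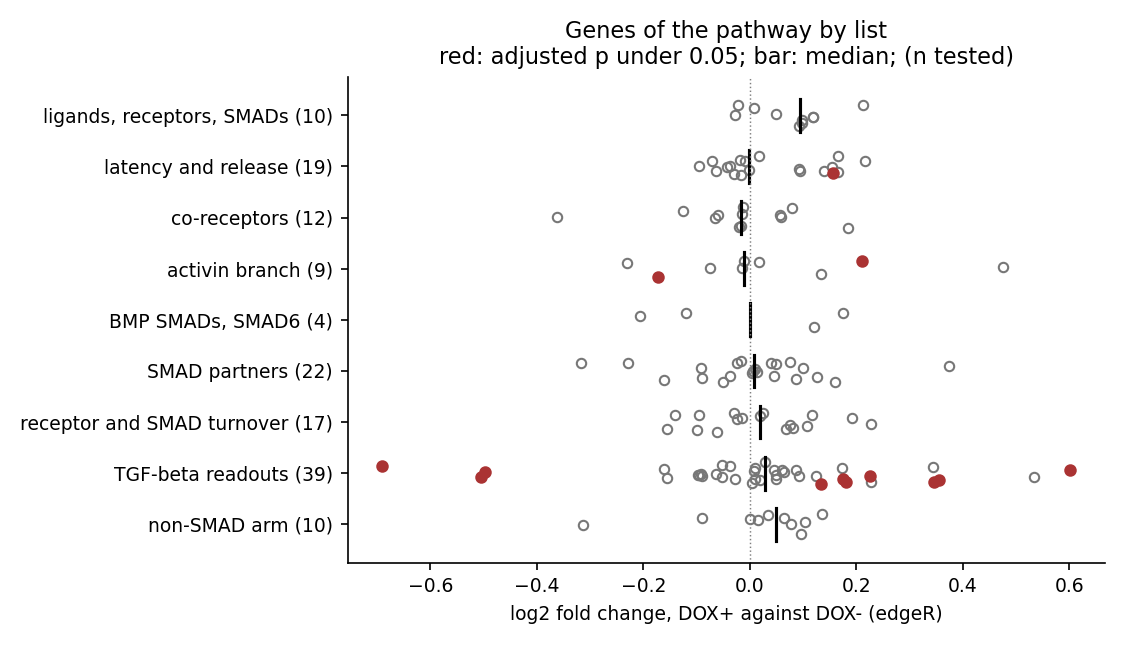
Log2 fold change of every tested gene of the pathway, DOX+ against DOX- (x axis), by list (y axis, number tested in parentheses), with red points for an edgeR adjusted p under 0.05 and bars for list medians. None of the 10 members in the top row is red; the readouts hold 10 red points, from -0.69 for COL1A1 to 0.60 for POSTN.

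The 126 pathway genes were then searched for those whose values over the 6 libraries lay nearest to TGFBR1, the member with the smallest p, by Euclidean distance between log2 CPM profiles set to their DOX- means. INHBA was nearest (distance 0.0422), then ITGAV, the αv integrin subunit that takes part in releasing latent TGF-β (0.0739), and CD109 (0.0867). ITGAV measured 240.2, 254.5 and 234.6 CPM in DOX- and 283.0, 301.8 and 262.9 CPM in DOX+ (log2 fold change 0.22; edgeR adjusted p = 0.0587). That the 4 genes share a highest library, DOX+ replicate 2, follows from how they were picked. ITGAV passed in 6 of 16 alternative analyses, DESeq2 among them (adjusted p = 3.24e-04). With the GC trend removed the log2 fold change was 0.13 for TGFBR1, INHBA and ITGAV alike and 0.10 for CD109. Without DOX+ replicate 2 CD109 had a log2 fold change of 0.12 (edgeR adjusted p = 0.432), and ITGAV had one of 0.17 (edgeR adjusted p = 0.14).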

How the data were processed

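RNA was taken as poly(A) RNA, made into libraries with a NEBNext Ultra II kit and sequenced as paired 150 bp reads. The authors filtered reads on quality and, per the submitters' processing notes, used HISAT2, StringTie and the build GRCh38. Tool versions, the annotation release, the counting step and strand settings are not given in the sources used here. The kit name in the paper does not mention strand, so reads of overlapping genes on opposite strands may not have been told apart. The deposited table holds raw read counts and FPKM (fragments relative to transcript length and library size) for the same 6 libraries, both made by the authors. It has 23771 lines, of which 17 name no feature and were dropped, leaving 19974 Ensembl genes and 3780 unannotated loci. The unannotated loci took 0.938% to 0.996% of counts.

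Counts were tested with edgeR 4.0.16 in R 4.3.3 (quasi-likelihood test, TMM scaling, filterByExpr with a minimum count of 10, DOX+ against DOX-, 3 libraries each), and p-values were adjusted by Benjamini-Hochberg over 13991 features. TMM factors lay between 0.988 and 1.01. FPKM served for levels between genes and, as log2(FPKM + 0.1) in limma 3.58.1, for an alternative fit, whose fold changes are on that scale. The other alternatives were limma-voom, DESeq2 1.42.0, no filter, a mean CPM of at least 1, other scalings, removal of length or GC trends, a replicate block, each library left out and a limit of 1 on the absolute log2 fold change. No libraries were duplicates of each other: the chi-square per degree of freedom between libraries of 1 group was 4.65 to 8.47. The edgeR step was tested on simulated data with 200 changed genes among 13991, and it recovered 39.7%, 66.7% and 86.4% of those set to an absolute log2 fold change of 0.25, 0.5 and 1, while 8.57% of its calls were false.

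The members and the pathway lists were chosen with earlier results of these data known. Genes were matched by Ensembl ID, since the table carries some older symbols. Named were the 10 members, ZNF469, the called genes of each list (with more than 4, the 2 of smallest p in each direction; with none, the 2 of smallest p) and CCN2, ACTA2, TAGLN, FN1 and COL1A1, plus the 3 genes nearest to the member of smallest p. A further gene that the rule names is not reported here. Positions are from GENCODE 44 and promoter sequences from RefSeq, both on GRCh38.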

Additional observations from a re-analysis of the deposited data

How the results depend on the processing

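TGFB3, at means of 0.54 CPM in DOX- and 0.58 CPM in DOX+, gave no value with a mean CPM of at least 1 and no adjusted p from DESeq2. TGFBR1, TGFBR2, TGFBR3, SMAD3 and SMAD7 stayed higher in DOX+ in all 16 alternatives run, and ZNF469 stayed called as lower in all 16. TGFBR1 passed without the filter (log2 fold change 0.21, adjusted p = 0.0363), with DESeq2 (0.22, 0.0123) and with the replicate block (0.21, 0.0379). With the GC trend removed TGFBR1 was 0.13 (0.0994). SMAD3 passed with DESeq2 alone (0.12, 0.0260). Members called therefore numbered 0 in the edgeR test, 1 without the filter, 2 with DESeq2 and 1 with the replicate block. Members near 0 changed sign. TGFB1 was 0.0079 on FPKM and 0.028 with the GC trend removed, and TGFB2 was 0.014 on FPKM. The median over all features was 0.029 on FPKM, against -0.002 in the edgeR test. It was -0.019 with the length trend removed and also with the GC trend removed. SMAD2 was -0.028 on FPKM, -0.081 with the length trend removed and -0.066 with the GC trend removed, and SMAD4 was -0.013 and -0.018 with these trends removed. TAGLN was -0.019 with the length trend removed. Leaving out each library in turn gave -0.080 to 0.018 for TGFB1, -0.045 to 0.020 for TGFB2, -0.011 to 0.21 for TGFB3, 0.16 to 0.24 for TGFBR1, 0.05 to 0.17 for TGFBR3, -0.012 to 0.035 for SMAD2, 0.10 to 0.15 for SMAD3 and -0.014 to 0.032 for TAGLN. The cause of these moves was not tested. Features called higher and lower, 56 and 100 in the edgeR test, were 127 and 163 without the filter, 88 and 77 with library size scaling, 260 and 267 with DESeq2, 6 and 25 on FPKM, 135 and 157 with the replicate block, 34 higher with the length trend removed, 85 and 241 with the GC trend removed, and 2 and 4 with the added limit of 1. They ran from 20 to 68 and from 57 to 95 with 1 library left out, fewest higher without DOX+ replicate 1. Pathway genes called, 9 higher and 4 lower, were 14 and 7 with DESeq2, 2 higher on FPKM, 7 lower with the GC trend removed and 0 and 0 with the limit of 1. Replicate numbers are only names here: deviations of same-numbered libraries correlated at -0.0241, -0.0352 and 0.0363, and not every library correlated best with its own number.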

Other observations

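Some targets called by edgeR fell outside the rule for naming and were chosen after their values were seen. POSTN, periostin, a matrix protein of activated fibroblasts, rose from 10.1 to 15.4 CPM (log2 fold change 0.60; edgeR adjusted p = 0.00595). LRRC15, a surface protein of TGF-β-responsive fibroblasts, rose from 36.0 to 45.7 CPM (0.34; edgeR adjusted p = 0.00277), LOX, which crosslinks collagen, from 1456 to 1644 CPM (0.18; adjusted p = 0.00531), and SNAI2, a transcription factor, from 102.3 to 119.7 CPM (0.23; adjusted p = 0.0190). COL3A1 fell from 784.4 to 555.7 CPM (-0.50; edgeR adjusted p = 1.13e-06).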
